A study of Rattus norvegicus with 23 samples.

Results

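Expression of 53 DNA replication and repair genes was followed in the lungs of elderly rats after inhalation of a TiO2 nano-aerosol. The members were the genes whose symbol, as written in the array annotation, stood on a list of 53 replication, nucleotide supply, cell cycle and repair genes. All 53 were found and tested, with 78 of their 79 probes, among 23029 genes in all. Total RNA of the accessory lobe was hybridised to Agilent single-colour rat arrays, with 1 rat on each of the 23 arrays. All rats were male F344 rats, 19 months old. Exposed rats had inhaled TiO2 at 10 mg/m3 for 6 hours a day, 5 days a week, over 4 weeks, and control rats had been kept in filtered air. Lungs were taken at the end of exposure (D0) from 6 control and 5 exposed rats, and 28 days later (D28) from 6 control and 6 exposed rats. The whole lobe was used, so that fewer cells of a type and less RNA per cell cannot be told apart.

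Replication starts when the origin recognition complex, Cdc6 and Cdt1 load the MCM helicase on DNA in G1. The kinase Cdc7 with Dbf4, and cyclin E with its kinase, then allow Cdc45 and the GINS complex to join the helicase, after which primase and polymerases copy the strands behind the sliding clamp Pcna. E2F factors drive many of these genes at the passage from G1 to S, while most mitotic genes are driven later through CHR elements. In adult lung few cells divide, and dividing cells rise after injury, among them type II pneumocytes, endothelial cells and macrophages.

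The promoters showed what the members share in sequence. RefSeq promoters on GRCr8, each of 300 bases with 250 before and 50 after the start site, were at hand for 45 of the 53 members. Rrm2, Cdc6, Ccne2, E2f1, E2f8, Orc1, Mcm4 and Blm had no entry. E2F-type letters (TTCCCGC, or the variant TTGGCGC, or the variant TTCGCGC, or the variant TTGCCGC, on either strand, where matches may overlap) stood in the window of 32 of 45 members, or 71.1%, against 9.52% of all 33469 promoters. Of other replication and repair genes listed for comparison 52.9% held them, and of the mitotic genes 18.8%. CHR letters (TTTGAA, or the variant TTCGAA, on either strand) stood in 9 of the 45 members, 25.5% of the other replication and repair genes, 68.8% of the mitotic genes and 19.7% of all promoters. CCAAT, on either strand, was found in 57.8% of the members, 47.1% of the other replication and repair genes, 71.9% of the mitotic genes and 37.5% of all promoters. The median GC content was 59.7% for the members, 62.2% for the other replication and repair genes, 58.8% for the mitotic genes and 51.7% for all promoters, and its part in the match counts was not tested. A match describes letters in the window and is not a shown binding site. A gene of a list counted when any of its windows matched, whereas all promoters were counted window by window. Uhrf1 had several windows, not all with E2F-type letters. Among members past a threshold in the comparisons, Ccne1 held no E2F-type letters in this window. Asf1b, Cdc45, Brca2, Pola2 and the marker Pcna held none either. The windows shown were chosen among named members with a match. The following 4 windows are shown because Fen1 passed the adjusted p on both days, Clspn passed both thresholds on D28, Mcm2 is a marker of the list, and Gins1 was among the members with the smallest p on D28. Each runs 5′ to 3′ on the strand of the gene, with E2F-type letters in capitals.
Fen1, chr1:216274347-216274646, minus strand: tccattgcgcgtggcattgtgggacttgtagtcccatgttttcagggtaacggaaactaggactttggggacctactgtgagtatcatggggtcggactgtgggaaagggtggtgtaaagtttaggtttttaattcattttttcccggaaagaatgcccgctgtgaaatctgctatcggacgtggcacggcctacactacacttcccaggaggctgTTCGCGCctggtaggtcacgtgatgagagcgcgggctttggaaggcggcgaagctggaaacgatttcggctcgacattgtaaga
Mcm2, chr4:122918045-122918344, minus strand: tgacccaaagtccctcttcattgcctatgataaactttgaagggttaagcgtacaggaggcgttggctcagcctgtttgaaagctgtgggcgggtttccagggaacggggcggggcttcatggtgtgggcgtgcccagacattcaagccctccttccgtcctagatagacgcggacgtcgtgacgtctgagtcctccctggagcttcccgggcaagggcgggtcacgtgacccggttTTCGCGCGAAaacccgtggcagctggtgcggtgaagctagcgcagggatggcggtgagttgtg
Gins1, chr3:160184670-160184969, plus strand: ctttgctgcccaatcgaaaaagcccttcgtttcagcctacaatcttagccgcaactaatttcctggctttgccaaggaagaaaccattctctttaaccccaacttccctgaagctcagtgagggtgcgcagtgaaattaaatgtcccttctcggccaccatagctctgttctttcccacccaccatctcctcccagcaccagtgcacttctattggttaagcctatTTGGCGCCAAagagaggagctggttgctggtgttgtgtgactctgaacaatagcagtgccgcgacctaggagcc
Clspn, chr5:144134387-144134686, plus strand: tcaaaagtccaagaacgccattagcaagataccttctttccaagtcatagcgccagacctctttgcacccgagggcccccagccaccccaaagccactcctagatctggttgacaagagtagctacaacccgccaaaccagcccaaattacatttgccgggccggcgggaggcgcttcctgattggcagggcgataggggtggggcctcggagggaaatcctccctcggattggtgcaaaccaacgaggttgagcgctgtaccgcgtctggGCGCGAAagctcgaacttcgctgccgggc
In Mcm2 and in Gins1 the capitals are a pair of overlapping matches on opposite strands. Fen1 and Clspn each held a single match.

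Signals are given as log2 of the quantile normalized processed signal, and a log2 fold change (FC) is the difference between group means on that scale, followed by its standard error. Levels are not compared between genes, because probes differ in brightness. A gene was a DEG when its adjusted p in limma was below 0.05 and its FC was at least 1.5. The 75th percentile of the processed signal ran from 1380 to 3470 over the arrays, and 69.5% to 77.9% of the spots were well above background. Precision is limited by how many arrays there were. Of the members, 42 were well above background on all 23 arrays, 10 on some and Uhrf1 on 0. The 3 markers Mcm2, Pcna and Rrm2 were well above background on every array. The type II pneumocyte markers, taken as a check of the tissue, were all measured, with a mean log2 signal between 13.72 and 14.22 on every array. The arrays lay on 5 slides. Slides 1, 3, 4 and 5 held control and exposed rats of D0, and slides 1, 3 and 5 those of D28. Slide 2 held only replicate 4 of the D28 controls, read with another version of the scanner software. Nothing in the labels tells separate litters or cages, and p-values measure the spread between these rats.

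At the end of exposure, 52 of the 53 members had a higher mean signal in exposed than in control rats, against 49.9% of all genes, and their median log2 FC was 0.31, against -0.00 over all genes. Rrm2 and Ccne1 were DEGs, both over-expressed, so that 2 members (3.77%) passed both thresholds where 1.79% of all genes did (1.09% higher and 0.695% lower). Without the FC limit 3 members passed, Rrm2, Ccne1 and Fen1, against 2.86% of all genes. At an unadjusted p below 0.05 there were 27 members, all higher in exposed rats, while 5.61% of all genes were higher at that p. Orc1, Pola2 and Uhrf1 were well above background on few arrays or none, and without them 26 members were higher at that p. In 4 members, Rrm2, Ccne1, Asf1b and Lig1, all 5 exposed rats lay above all 6 controls, which was so for 1.94% of all genes.

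The mean over the 53 members lay between 6.50 and 7.21 in the D0 controls and between 6.94 and 7.38 in the exposed rats. One control, replicate 1, stood at 7.21, within the range of the exposed rats, while the other controls reached 6.86 at most. This control held the highest control signal of 39 members, and replicate 4 of the exposed rats, on the same slide 3, the highest exposed signal of 29. Without this control 7 members passed both thresholds on D0 (Mcm5, Rrm2, Tk1, Cdc6, Cdc45, Asf1b and Ccne1), where 1.56% of all genes did. On each of the slides that held both groups the mean of the members was higher in exposed rats, by 0.33, 0.34, 0.42 and 0.51 on slides 1, 3, 4 and 5. The members higher in exposed rats numbered 41, 46, 52 and 49 of 53 on these slides, and 36 members were higher on all of them. Slides 1 and 5 held 1 exposed and 1 control rat of D0 each, and slide 3 held 1 exposed rat and 2 controls. The same counts over all genes were not taken.

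**Figure D1:**
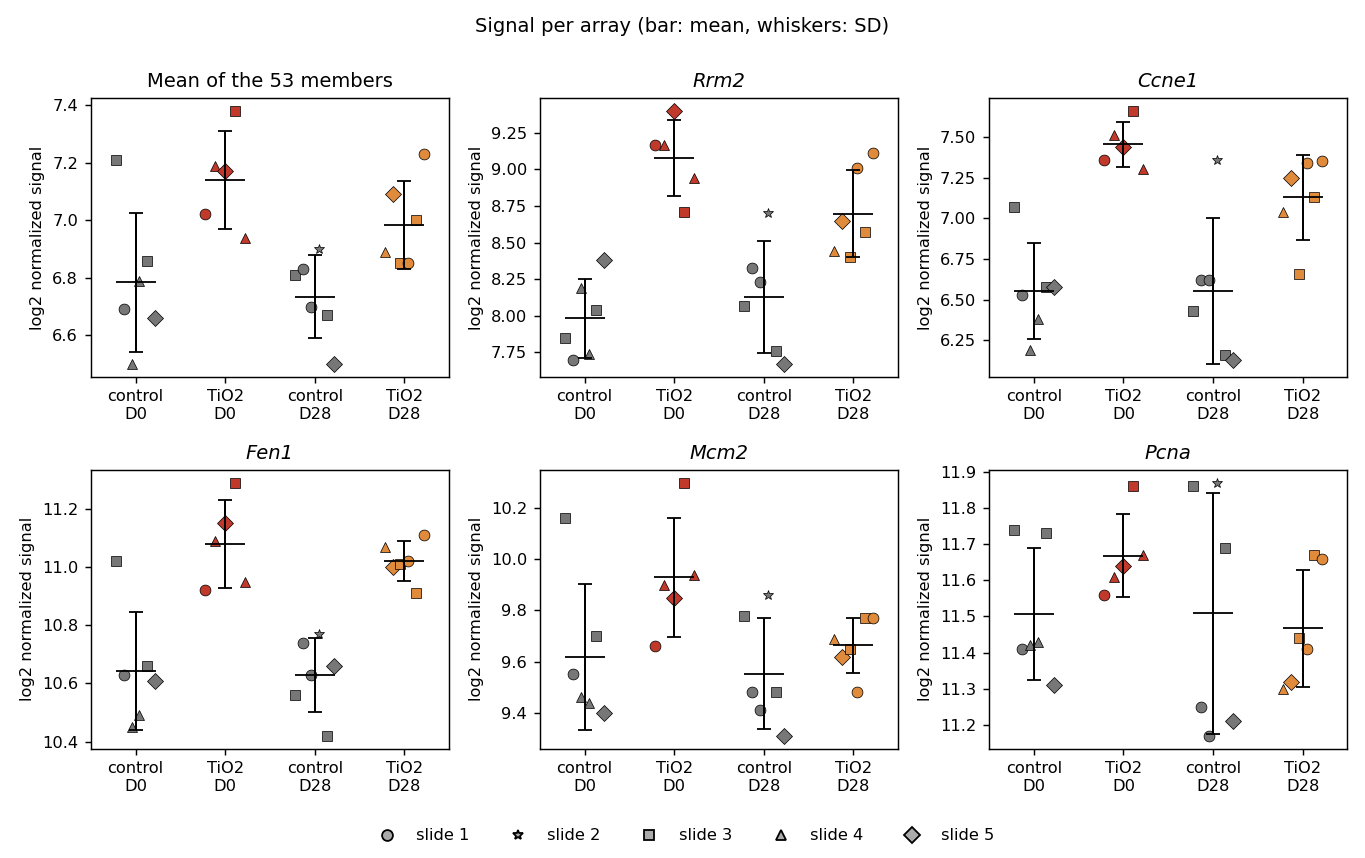
Log2 normalized signal on each array (points; the shape gives the slide) for the mean of the 53 members and for 5 of them, with the mean (bar) and SD (whiskers) of each group. All exposed rats of D0 lay above all controls for Rrm2 and Ccne1, whereas for Mcm2 and Pcna the groups overlapped on both days, and control replicate 1 of D0 on slide 3 stood at 7.21 in the mean of the members.

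Nucleotide supply held the member with the largest FC. Rrm2, the regulated subunit of ribonucleotide reductase, had log2 signals of 9.17, 9.17, 9.40, 8.71 and 8.94 in the 5 exposed rats of D0. The lowest, median and highest control of that day were 7.70, 7.94 and 8.38. No exposed rat overlapped the controls, and the log2 FC was 1.09 ± 0.18 (2.14-fold, adjusted p = 0.00142). Both probes of Rrm2 gave a DEG on D0, with log2 FC of 1.13 and 1.06. On D28 the exposed rats ran over 8.40, 8.61 and 9.11 (lowest, median, highest) and the controls over 7.67, 8.15 and 8.70, so that the groups overlapped. The log2 FC was 0.57 ± 0.18 and the adjusted p 0.128. Within slides, the difference of Rrm2 ran from 0.77 to 1.47 on D0 and from 0.57 to 0.98 on D28. The partner subunit Rrm1 had a log2 FC of 0.32 ± 0.13 on D0 and 0.01 ± 0.12 on D28, and its probes disagreed in sign on D28. Tk1, which salvages thymidine, had 0.57 ± 0.21 and 0.28 ± 0.20, and Tyms, which makes thymidylate, 0.09 ± 0.14 and 0.04 ± 0.13. None of these last 3 passed the adjusted p on either day.

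The genes of the passage from G1 to S were led by Ccne1, cyclin E1. Its log2 signals in the exposed rats of D0 were 7.36, 7.51, 7.44, 7.66 and 7.30, above the controls, whose lowest, median and highest were 6.19, 6.55 and 7.07. Its log2 FC was 0.90 ± 0.19 (1.87-fold, adjusted p = 0.00834). After 28 days the exposed rats had 6.66, 7.19 and 7.35 and the controls 6.13, 6.53 and 7.36, and the highest control, replicate 4 on slide 2, exceeded every exposed rat. The log2 FC on D28 was 0.57 ± 0.18 (adjusted p = 0.134), and without that control Ccne1 passed both thresholds. Ccne2, cyclin E2, had 0.51 ± 0.20 on D0 and 0.41 ± 0.19 on D28 without passing. E2f1, an activating E2F factor, had 0.09 ± 0.09 and 0.11 ± 0.09. E2f8, a repressing one, had 0.62 ± 0.29 and -0.15 ± 0.27, was well above background on 4 of 6 D0 controls and 5 of 5 exposed rats, and its probes disagreed in sign on D28.

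Of the genes of the clamp, its loader and the joining of Okazaki fragments, Fen1 passed the adjusted p on both days, with a FC below 1.5. This flap endonuclease trims the fragments, and its log2 signals on D0 were 10.92, 11.09, 11.15, 11.29 and 10.95 in exposed rats. The D0 controls had 10.45, 10.62 and 11.02 as lowest, median and highest, of which replicate 1, the highest, lay inside the exposed range. The log2 FC was 0.44 ± 0.10 (adjusted p = 0.0128). On D28 all 6 exposed rats, at 10.91, 11.02 and 11.11, lay above all 6 controls, at 10.42, 10.65 and 10.77. The log2 FC was 0.39 ± 0.09 (1.31-fold, adjusted p = 0.0368). On D0 its adjusted p stayed below 0.05 in each of the 23 fits that left out 1 array and in 14 of 15 other settings, the exception being the arrays of the day alone (0.0665). On D28 it rose above 0.05 in 9 of the 23 fits (without control replicate 1, 3, 5 or 6 or exposed replicate 1, 2, 3, 4 or 6 of D28) and in 3 of 15 other settings, up to 0.0941. Lig1, the ligase that seals the fragments, had 11.33, 11.51, 11.68, 11.49 and 11.37 in the exposed rats of D0 and 11.07, 11.17 and 11.30 in the controls, with no overlap. Its log2 FC of 0.29 ± 0.08 had an adjusted p of 0.0676, and on D28 the log2 FC was 0.22 ± 0.08 (0.237), with exposed rats at 11.41, 11.49 and 11.68 and controls at 11.10, 11.28 and 11.50. Pcna, the clamp and a marker of the list, did not pass the adjusted p on either day. Its exposed rats had 11.56, 11.61, 11.64, 11.86 and 11.67 on D0, within or just above the controls at 11.31, 11.42 and 11.74, with a log2 FC of 0.16 ± 0.14. On D28 the value was -0.04 ± 0.13, with 11.30, 11.42 and 11.67 in exposed rats and 11.17, 11.47 and 11.87 in controls. The clamp loader subunits Rfc2, Rfc3, Rfc4 and Rfc5 had log2 FC of 0.15, 0.20, 0.03 and 0.10 on D0 and of 0.22, 0.17, 0.23 and 0.19 on D28, none past the adjusted p.

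The MCM helicase, 6 subunits that unwind DNA, had a median log2 FC of 0.34 on D0 and 0.10 on D28, and no subunit passed the adjusted p in limma, while 3 on D0 and 2 on D28 were higher at an unadjusted p below 0.05, against 5.61% and 4.81% of all genes. Mcm2 had 9.66, 9.90, 9.85, 10.30 and 9.94 in the exposed rats of D0 and 9.40, 9.51 and 10.16 in the controls, with 1 exposed rat above all controls. Its log2 FC was 0.31 ± 0.14 on D0 (adjusted p = 0.316). On D28 it was 0.11 ± 0.13, with 9.48, 9.67 and 9.77 in exposed rats and 9.31, 9.48 and 9.86 in controls. Mcm5 had the largest values, 0.59 ± 0.22 and 0.50 ± 0.21, and passed both thresholds on both days with the slide as a fixed block. Mcm4 had 0.36 ± 0.13 and 0.01 ± 0.13, and Mcm6 0.38 ± 0.20 and 0.42 ± 0.19. For Mcm3 the values were 0.08 ± 0.22 and 0.08 ± 0.21, with probes of opposite sign on both days, and for Mcm7 they were 0.11 ± 0.10 and -0.07 ± 0.09. Probes of Mcm4 also differed in sign on D28.

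**Figure D2:**
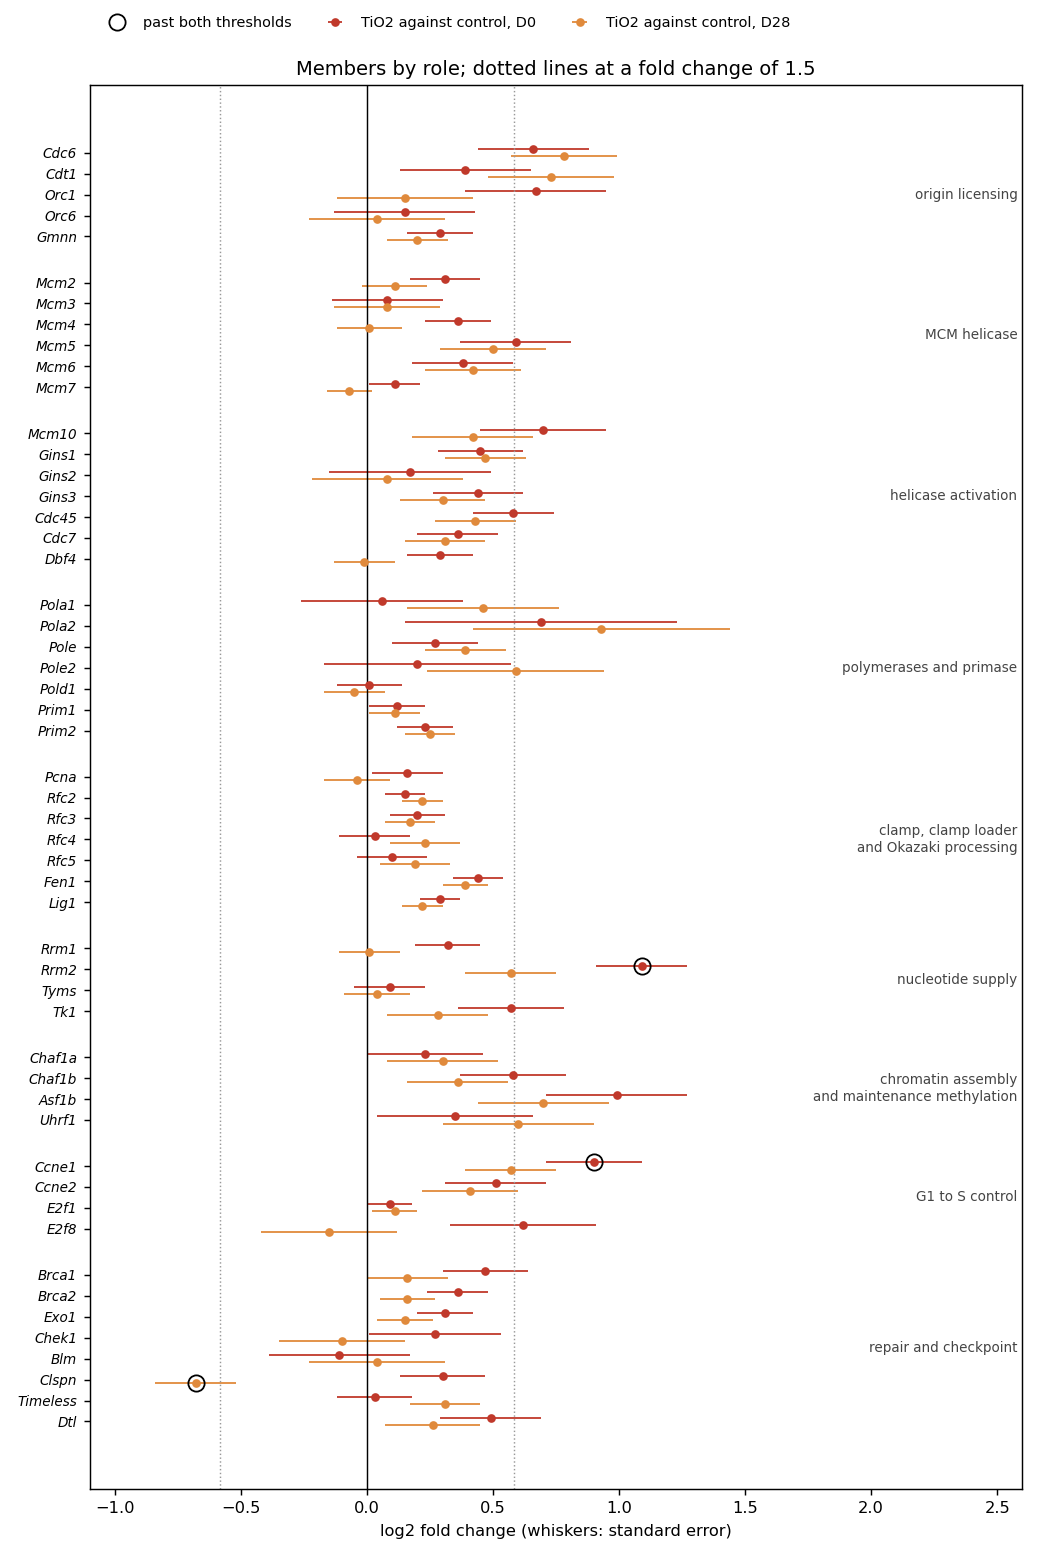
Log2 fold change (points) with its standard error (whiskers) of 52 members, ordered by role, for exposure effects on D0 and D28; circles mark members past both thresholds and dotted lines a fold change of 1.5. Nearly all points lie right of 0, with Rrm2 and Ccne1 circled on D0 and Clspn, on the left, on D28.

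Of the 5 genes that license origins none passed the adjusted p in limma, while Cdc6 and Gmnn on D0 and Cdc6 and Cdt1 on D28 were higher at an unadjusted p below 0.05, against 5.61% and 4.81% of all genes. Cdc6, which helps to load the helicase, had 5.07, 5.62, 5.38, 5.48 and 5.0 in the exposed rats of D0 and 4.02, 4.69 and 5.57 in the controls. On D28 exposed rats had 4.98, 5.54 and 5.71 and controls 4.38, 4.61 and 5.22, and 5 of 6 exposed rats lay above all controls. The log2 FC of Cdc6 was 0.66 ± 0.22 on D0 and 0.78 ± 0.21 on D28, with adjusted p of 0.133 and 0.0714. Cdc6 passed both thresholds on D28 without replicate 1 of the D0 controls or replicate 4 of the D28 controls. Cdt1, its partner in loading, had 4.27, 4.25, 4.39, 5.40 and 4.49 in exposed rats of D0 and 3.42, 4.05 and 5.22 in controls. On D28 its 6 exposed rats, at 3.95, 4.10 and 4.81, all lay above the 6 controls, at 3.34, 3.55 and 3.77. The log2 FC was 0.39 ± 0.26 and 0.73 ± 0.25 (adjusted p = 0.198 on D28), and Cdt1 was well above background on 1 of 6 controls and 4 of 6 exposed rats of D28. Gmnn, the inhibitor of Cdt1, had 0.29 ± 0.13 and 0.20 ± 0.12. Orc6 had 0.15 ± 0.28 and 0.04 ± 0.27. Orc1 was well above background on 1 exposed array of D0 only, and neither a fold nor a test is given for it.

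The genes that turn the loaded helicase into a moving fork had a median log2 FC of 0.44 on D0 and 0.31 on D28. Cdc45, part of the active helicase, had 9.13, 9.55, 9.59, 9.96 and 9.36 in the exposed rats of D0, of which 3 lay above all controls, at 8.64, 8.84 and 9.55. On D28 5 of 6 exposed rats, at 9.16, 9.34 and 9.73, lay above all controls, at 8.68, 9.0 and 9.23. Its log2 FC was 0.58 ± 0.16 (adjusted p = 0.0625) and 0.43 ± 0.16 (0.243), and it passed both thresholds on D0 without control replicate 1 or without exposed replicate 1. Gins1, a subunit of GINS, had 8.32, 8.83, 8.81, 9.15 and 8.52 in exposed rats and 7.88, 8.20 and 8.83 in controls of D0, and 8.41, 8.65 and 8.82 against 7.86, 8.08 and 8.71 on D28. Its log2 FC was 0.45 ± 0.17 and 0.47 ± 0.16 (adjusted p = 0.198 on D28). Mcm10, which helps the fork to start, had 5.71, 5.82, 6.06, 5.78 and 5.26 in the exposed rats of D0, 4 of them above all controls, at 4.51, 5.07 and 5.58. Its D28 values were 5.05, 5.84 and 6.41 in exposed rats and 4.83, 5.39 and 5.89 in controls, and the log2 FC was 0.70 ± 0.25 and 0.42 ± 0.24. Gins3 had 0.44 ± 0.18 and 0.30 ± 0.17, and Gins2, dim in both groups, 0.17 ± 0.32 and 0.08 ± 0.30. The kinase Cdc7 had 0.36 ± 0.16 and 0.31 ± 0.16, and its activator Dbf4 0.29 ± 0.13 and -0.01 ± 0.12, with probes of opposite sign on D28.

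Of the 7 genes of polymerases and primase none passed the adjusted p in limma, and 1 on D0 and 2 on D28 were higher at an unadjusted p below 0.05, against 5.61% and 4.81% of all genes. Prim1 and Prim2, the primase subunits, had log2 FC of 0.12 ± 0.11 and 0.23 ± 0.11 on D0 and of 0.11 ± 0.10 and 0.25 ± 0.10 on D28. Pole, the catalytic subunit of the leading strand polymerase, had 0.27 ± 0.17 and 0.39 ± 0.16, and Pold1, that of the lagging strand, 0.01 ± 0.13 and -0.05 ± 0.12. Pole2 had 0.20 ± 0.37 and 0.59 ± 0.35, with 2 of 6 controls and 3 of 6 exposed rats of D28 well above background. Pola1, which extends the primers, had 0.06 ± 0.32 and 0.46 ± 0.30. Its partner subunit Pola2 was not well above background on any control of either day. On 2 of 5 exposed arrays of D0 it was. The exposed mean was 1.09-fold the mean of the controls raised, array by array, to the dimmest signal well above background. Exposed arrays not well above background were kept as read, so this is not a lower bound. The D0 groups overlapped, and the adjusted p in limma was 0.769. On D28 Pola2 was well above background on 1 of 6 exposed arrays, and no fold is given.

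In chromatin assembly, Asf1b, a histone chaperone, had the second largest log2 FC of D0. Its exposed rats had 5.78, 6.08, 5.97, 6.25 and 5.75, all above the controls at 4.28, 4.96 and 5.75, where the lowest exposed and the highest control rat were equal after rounding. The log2 FC was 0.99 ± 0.28 (1.99-fold) with an adjusted p of 0.0549, just above the threshold. On D28 it was 0.70 ± 0.26 (0.257), with 5.0, 5.68 and 5.97 in exposed rats and 3.81, 4.84 and 5.49 in controls. Asf1b passed on D0 in 9 of 15 alternative settings, among them the one with an unadjusted p in place of the adjusted p. It also passed both thresholds without replicate 1 of the D0 controls or replicate 1, 4 or 6 of the D28 controls, which enter the shared estimate of the spread. The subunits of chromatin assembly factor Chaf1a and Chaf1b had 0.23 ± 0.23 and 0.58 ± 0.21 on D0 and 0.30 ± 0.22 and 0.36 ± 0.20 on D28. Uhrf1, which guides maintenance methylation, was not well above background on any array, and no fold is given.

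Repair and checkpoint genes were higher in exposed rats of D0 in 8 of 9 cases, and none passed the adjusted p in limma that day, while 4 were higher at an unadjusted p below 0.05, against 5.61% of all genes. Brca2, a gene of recombination repair, had 7.69, 7.65, 7.75, 7.94 and 7.32 in exposed rats and 7.06, 7.33 and 7.51 in controls, with 4 exposed rats above all controls. Its log2 FC was 0.36 ± 0.12 on D0 (adjusted p = 0.14) and 0.16 ± 0.11 on D28, with 7.61, 7.74 and 8.05 in exposed rats and 7.36, 7.63 and 7.80 in controls. Brca1 had 0.47 ± 0.17 and 0.16 ± 0.16, its probes differing in sign on D28. Exo1, a nuclease of resection and mismatch repair, had 0.31 ± 0.11 and 0.15 ± 0.11, with probes of opposite sign on D0. Dtl, which guides Cdt1 to destruction, had 0.49 ± 0.20 and 0.26 ± 0.19. The checkpoint kinase Chek1 had 0.27 ± 0.26 and -0.10 ± 0.25, and Timeless, which steadies the fork, 0.03 ± 0.15 and 0.31 ± 0.14. Blm, a helicase of recombination repair, was the member with a lower mean on D0, -0.11 ± 0.28. Its value on D28 was 0.04 ± 0.27, its probes differed in sign on both days, and its sign on D0 turned with the scaling (0.02 with 75th percentile scaling).

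After 28 days, 46 of the 53 members had a higher mean in exposed rats, against 48.8% of all genes, with a median log2 FC of 0.22, against -0.01 over all genes. The 7 others were Mcm7, Pcna, Dbf4, Pold1, E2f8, Chek1 and Clspn. Clspn, lower in exposed rats, was the single DEG among the members (1.89%), where 0.756% of all genes were DEGs, 0.486% higher and 0.269% lower. Fen1 passed the adjusted p without the FC limit, which made 2 members, against 1.32% of all genes. At an unadjusted p below 0.05 there were 16 members higher and 1 lower, against 4.81% and 6.18% of all genes. Fen1 and Cdt1 had all exposed rats above all controls, as did 0.682% of all genes. The mean over the members lay between 6.50 and 6.90 in controls and between 6.85 and 7.23 in exposed rats. Within slides it was higher in exposed rats by 0.27, 0.18 and 0.59 on slides 1, 3 and 5, where 44, 38 and 50 of the members were higher. Slide 5 held 1 exposed and 1 control rat of D28, and the counts over all genes were not taken.

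The count of DEGs among the members on D28 moved with the slide. With the slide as a fixed block, which drops replicate 4 of the D28 controls because no other array shared slide 2, 8 members passed both thresholds on D28, where 1.09% of all genes did. They were Mcm5, Rrm2, Gins1, Cdc6, Asf1b, Ccne1 and Ccne2, all higher, and Clspn, lower. On D0 there were 5 (Mcm5, Rrm2, Cdc45, Asf1b and Ccne1), against 2.20% of all genes. With the slide as a random block there were 4 on each day, against 2.35% of all genes on D0 and 1.14% on D28. Without replicate 4 of the D28 controls alone, Cdc6, Ccne1 and Clspn passed on D28, where 0.629% of all genes did. Rrm2 had a log2 FC of 0.70 ± 0.15 on D28 under the fixed block, with an adjusted p in limma of 0.022, and Ccne1 one of 0.77 ± 0.14, with an adjusted p of 0.00928.

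**Figure D3:**
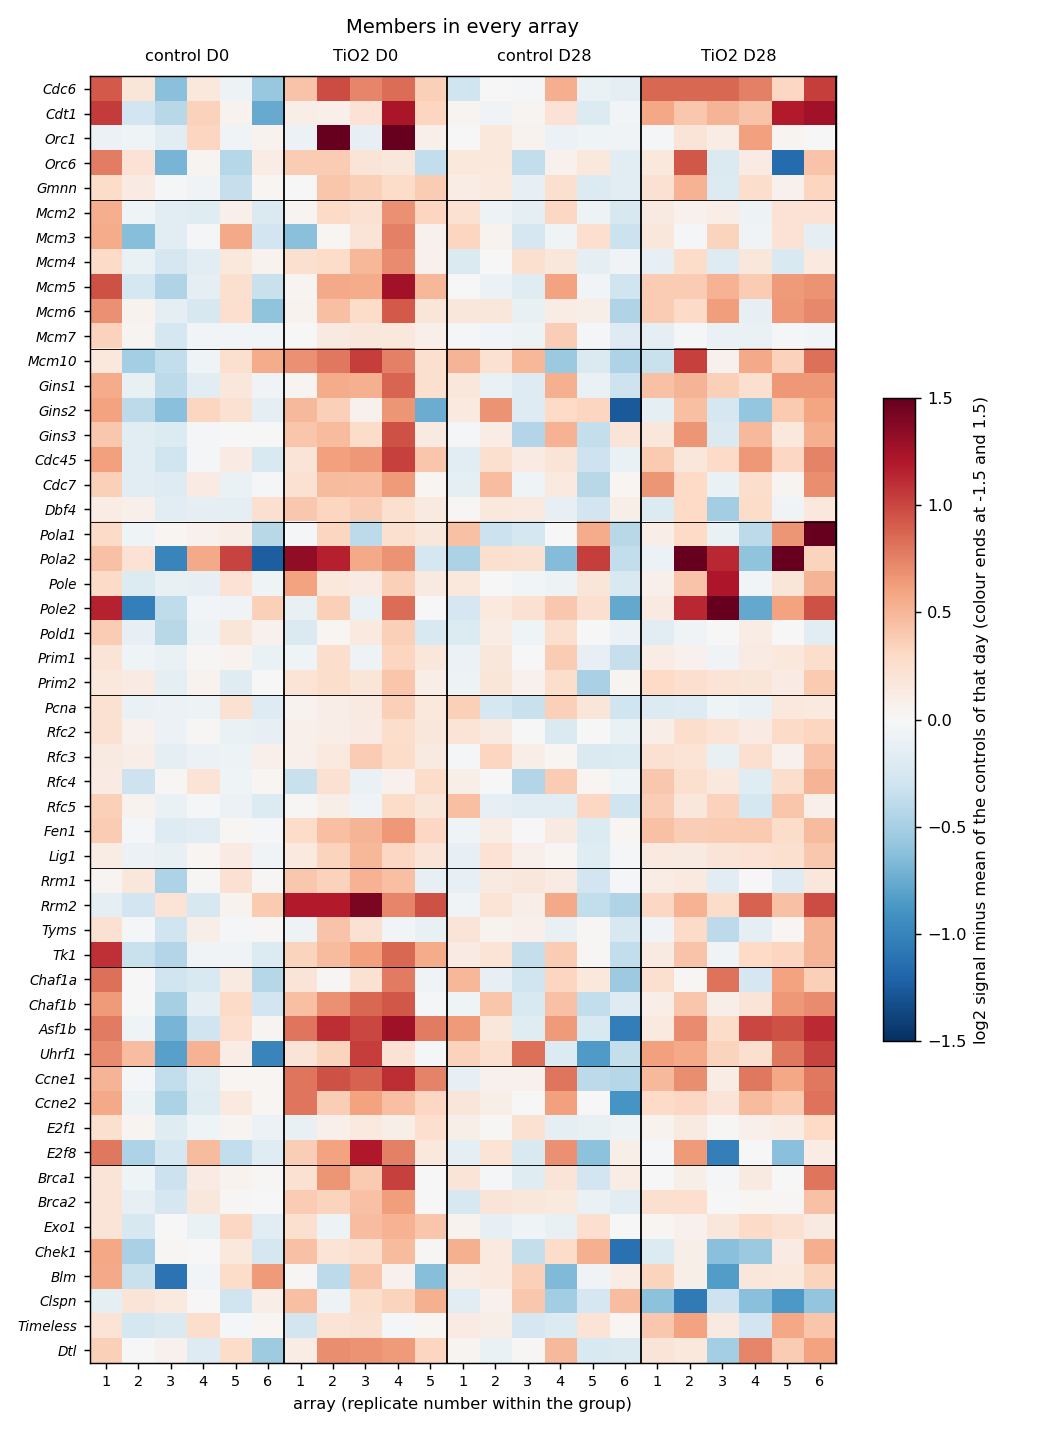
Log2 signal of 52 members (rows, grouped by role) on the 23 arrays (columns), minus the mean of the controls of the same day; red is higher and blue lower, and the colours end at -1.5 and 1.5. The column of control replicate 1 of D0 is red over most rows, like those of the exposed rats, and the row of Clspn is blue in the exposed rats of D28.

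Clspn, the mediator that lets the checkpoint kinase act at a stalled fork, went the other way from most members on D28. Its log2 signals were 4.80, 5.24 and 5.55 (lowest, median, highest) in exposed rats and 5.34, 5.81 and 6.32 in controls, with a log2 FC of -0.68 ± 0.16 (1.60-fold lower, adjusted p = 0.0354). The groups overlapped, since the highest exposed rat stood above the lowest control. On D0 it had 5.26, 4.74, 5.08, 5.15 and 5.35 in exposed rats and 4.51, 4.86 and 5.01 in controls, a log2 FC of 0.30 ± 0.17 (adjusted p = 0.539). Its probes differed in sign on D0. The controls of D28 were also higher than those of D0, by 1.04 ± 0.16 (2.06-fold, adjusted p = 0.00104), and the D28 controls enter both contrasts. Clspn was the single member past both thresholds between the controls (1.89%), where 0.608% of all genes were and 0.386% were higher. All D28 controls lay above all D0 controls, and the share of all genes that did so was not counted. Among its probes only the dim one described below separated these control groups. On slides 1, 3 and 5 the D28 difference was -0.84, -0.38 and -1.52.

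This call rested on 1 of the 3 Clspn probes. The probe at chr5:145964952-145965011 (rn4, plus strand) had mean log2 signals of 2.65 in D0 controls, 3.32 in exposed rats of D0, 4.84 in D28 controls and 3.41 in exposed rats of D28. It was well above background on all 6 D28 controls, on 1 of 6 exposed rats of that day and on no array of D0. The brightest probe, at chr5:145947594-145947653, had a log2 FC of -0.39 on D28 and an adjusted p of 0.892. The probe at chr5:145966722-145966781 had -0.21 and 0.844. With the first of these probes left out, an alternative chosen after its values were seen, the log2 FC of Clspn was -0.30 on D28 (adjusted p in limma of 0.804) and 0.47 between controls (0.51), and no member passed both thresholds in either contrast. The D28 call was also lost in 8 of the 23 fits without 1 array (control replicate 2, 3 or 6 or exposed replicate 1, 2, 4, 5 or 6 of D28), where the log2 FC ran from -0.69 to -0.59 and the adjusted p from 0.0558 to 0.0892. What part of the gene the probes cover is not given in the sources used here.

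**Figure D4:**
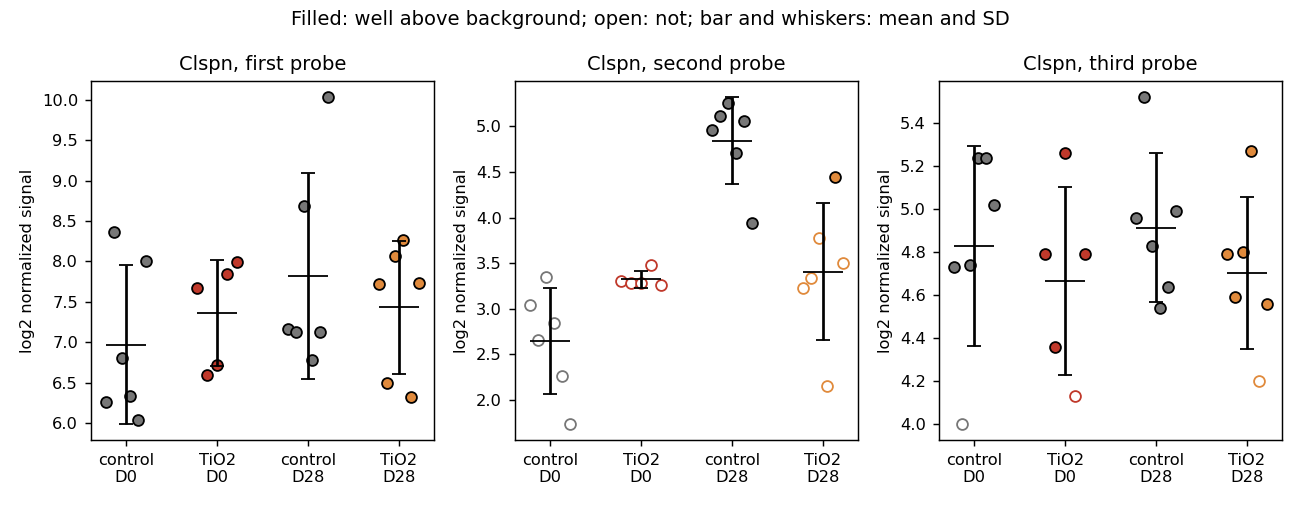
Log2 normalized signal on each array (points; filled when well above background) of the 3 Clspn probes, ordered by position along the chromosome, with group mean (bar) and SD (whiskers). The second probe was well above background on all 6 controls of D28 and on 1 exposed rat of that day. Exposed and control rats of D28 overlapped for all 3 probes. For the second probe, exposed replicate 5 at 4.45 stood above control replicate 6 at 3.94.

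The change between the days was tested as the difference of the exposure effects. No member passed both thresholds in it, where 0.0304% of all genes did, and 1 member, Clspn, had an unadjusted p below 0.05 in limma, against 3.44% of all genes (difference -0.98 ± 0.23, adjusted p = 0.269). The log2 FC was larger on D0 than on D28 in 36 of 53 members, against 11621 of all 23029 genes. For Rrm2 the difference was -0.52 ± 0.25, for Ccne1 -0.33 ± 0.26 and for Fen1 -0.05 ± 0.13, each with an adjusted p of 1 after rounding. Between exposed rats of D28 and of D0, no member passed both thresholds, where 0.352% of all genes did, and 4 were lower at an unadjusted p below 0.05 in limma, against 3.88%. Between the controls, 22 of 53 members were higher on D28, against 48.9% of all genes, with a median of -0.02, and 2 were higher and 4 lower at an unadjusted p below 0.05, against 6.52% and 6.73%. Members with the smallest p in that contrast after Clspn were Rfc2 (-0.23 ± 0.08, adjusted p = 0.203), Brca2 (0.29 ± 0.11), Cdt1 (-0.62 ± 0.25), Rfc4 (-0.30 ± 0.14) and Pole2 (-0.77 ± 0.35). None of these 5 passed the adjusted p.

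Other genes of replication and repair were listed from general knowledge for comparison. Of 62 measured, 43 were higher on D0, against 49.9% of all genes, with a median log2 FC of 0.10. On that day 3 were DEGs, all higher, where 1.79% of all genes were DEGs, 1.09% higher. These were Ccna2, the S and G2 phase cyclin (1.31 ± 0.27, adjusted p = 0.00718), E2f7, a repressing E2F factor (0.77 ± 0.18, 0.0231), and Bard1, the partner of Brca1 (1.02 ± 0.28, 0.05, which is below the threshold before rounding). On D28 none of the 62 was a DEG, where 0.756% of all genes were, and the median was 0.11. At an unadjusted p below 0.05 in limma 6 were higher, against 4.81% of all genes. The median log2 FC of 36 mitotic genes was 1.02 on D0. Of these genes 22 were DEGs that day, all higher, where 1.09% of all genes were DEGs and higher. Among them were Mki67, a mark of cycling cells (1.11 ± 0.14, adjusted p = 0.000123), Plk1, a mitotic kinase (1.21 ± 0.16, 0.00025), Cdk1, the kinase of mitotic entry (1.09 ± 0.17, 0.000932), and Ccnb1, its cyclin (1.19 ± 0.21, 0.00281). On D28 none of the 36 was a DEG, and the median was 0.32. At an unadjusted p below 0.05 in limma 12 were higher, against 4.81% of all genes. With the slide as a fixed block, 25 of the 36 passed both thresholds on D0 and 4 on D28. Of all genes 2.20% and 1.09% did. Between the controls 30 of the 36 were higher on D28 than on D0 (48.9% of all genes), with a median of 0.27. Between exposed rats all 36 were lower on D28, with a median of -0.36. At that p 9 were higher between controls (6.52% of all genes) and 10 lower between exposed rats (3.88%). Whether the members and the mitotic genes differed was not tested.

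The list of CDK inhibitors, p53 targets and related cell cycle genes, 19 in all, had a median log2 FC of -0.09 on D0 with no DEG. At an unadjusted p below 0.05 in limma 1 gene was higher, against 5.61% of all genes. On D28 the median of the 19 was -0.08 and 1 was a DEG, Cdkn2b, an inhibitor of the G1 kinases (-0.68 ± 0.12, adjusted p = 0.00483). Of all genes 0.756% were DEGs that day. On that day 6 of the 19 were lower and 0 higher at an unadjusted p below 0.05 in limma, against 6.18% and 4.81% of all genes. Between the controls 2 of the 19 were DEGs, higher on D28, where 0.386% of all genes were. At that p 5 were higher and 2 lower on D28 than on D0 between the controls, against 6.52% and 6.73% of all genes. Between exposed rats of D28 and of D0 there was no DEG on this list, and 1 gene was higher and 0 lower at that p. The mean log2 signal of Cdkn2b was 7.83 in D0 controls, 7.68 in exposed rats of D0, 8.66 in D28 controls and 7.98 in exposed rats of D28, so that the D28 controls stood highest, as they did for Clspn.

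**Figure D5:**
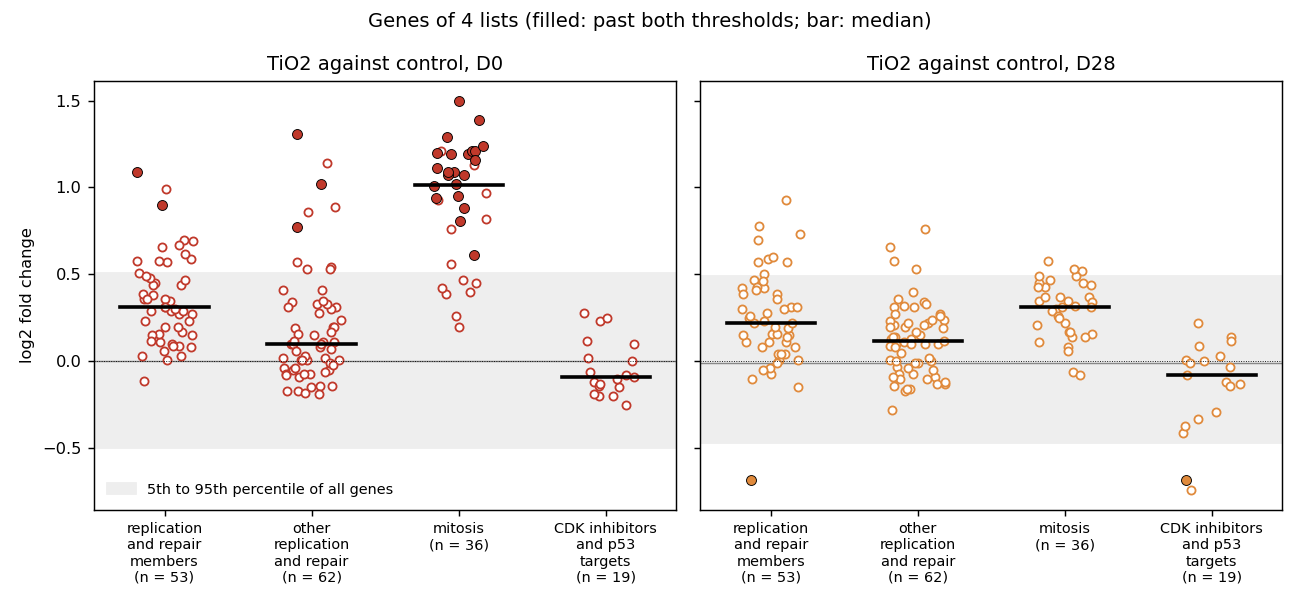
Log2 fold change of each gene (points; filled when past both thresholds) in 4 lists on D0 and on D28, with the median (bar) and the 5th to 95th percentile of all 23029 genes (grey band). On D0 the median was 1.02 for the mitotic genes and 0.31 for the replication and repair members, with overlapping points, and on D28 the medians were 0.32 and 0.22.

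Markers of other cell types were followed beside the members. Of all 23029 genes, 1.79% were DEGs on D0 and 0.756% on D28. At an unadjusted p below 0.05 in limma, 1291 of the 23029 genes (5.61%) were higher and 1460 lower on D0. On D28, 1108 (4.81%) were higher and 1424 (6.18%) lower. Of 14 macrophage markers 2 were DEGs on D0, Siglec1 and Spp1, and the mean over the list ran from 9.57 to 9.93 in controls and from 10.12 to 10.37 in exposed rats. On D28 it ran from 9.50 to 10.04 and from 9.96 to 10.21, and 1 was a DEG. At an unadjusted p below 0.05 in limma, 6 of these markers were higher on D0, and 6 higher and 1 lower on D28. Endothelial markers lay lower, at 11.41 to 11.64 in controls and 11.14 to 11.37 in exposed rats of D0, and at 11.22 to 11.58 and 11.12 to 11.55 on D28, with none of 10 a DEG in limma and 4 lower at an unadjusted p below 0.05 on each day. The type II pneumocyte list ran from 13.79 to 13.92 in controls and from 13.94 to 14.22 in exposed rats of D0, and from 13.72 to 14.10 and 13.94 to 14.18 on D28, again with none of 10 a DEG, while 5 were higher and 1 lower on D0, and 4 higher on D28, at an unadjusted p below 0.05. Cardiac and skeletal muscle markers ran from 7.72 to 9.02 in controls and from 7.28 to 7.58 in exposed rats of D0, and from 7.53 to 8.32 and 7.27 to 8.63 on D28, and Myl7 was a DEG, lower, on both days. All 11 of them were lower on D0, and 8 lower and 3 higher on D28. At an unadjusted p below 0.05 in limma, 7 were lower on D0 and 4 on D28, with 0 higher on either day. Of 12 neutrophil markers 4 were higher and 8 lower on D0, and 3 higher and 9 lower on D28. Lcn2 was a DEG, higher, on D0, and none was a DEG on D28. At an unadjusted p below 0.05 in limma, 1 was higher and 1 lower on each day. The list mean lay between 7.24 and 7.98 in controls and 7.10 and 7.80 in exposed rats of D0. On D28 it lay between 6.78 and 7.90 in controls and 7.13 and 7.65 in exposed rats. None of the 12 T cell, 12 B and plasma cell and 7 thymus and lymphoid progenitor markers was a DEG in limma on either day, and at an unadjusted p below 0.05 0, 1 and 1 were higher on D0 and 1, 1 and 2 on D28. Ltf, Nppa and Dntt, defining markers of neutrophils, atrial muscle and lymphoid progenitors, were not well above background on any array. The part of these markers in the changes of the members was not tested.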

How the data were processed

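Per the file headers, the authors deposited the scanner output of each array as intensity values, with processed signals corrected for background by Feature Extraction 11.0.1.1 (12.0.1.1 on 1 array), not normalized between arrays. The table of all arrays deposited by the authors, also intensity values, was an alternative. Outlier spots (124 of members) were set missing, and no member spot was saturated. Of 45598 probes, 40417 exceeded the 95th percentile of the 308 negative controls on 5 or more arrays, their log2 signals were quantile normalized, and spots and probes were averaged to genes by symbol (23029 genes, 29 dropped for a missing value). In limma 3.58.1 (R 4.3.3), 1 model with a mean for each of 4 groups was fitted to all 23 arrays (19 residual degrees of freedom), with Benjamini-Hochberg adjustment over all genes. The limits for DEGs were an adjusted p of 0.05 and a FC of 1.5. Groups followed titles and descriptions, since the source label of the exposed D28 samples names day 0. Probe positions are on rn4 and promoters on GRCr8, with no conversion. Scripts were tested on simulated data. Members, lists and tests were chosen with earlier results of these data known. Genes named were the markers, the DEGs, the 10 members with the smallest p in each of 3 contrasts, the extremes, and members dim or with probes of opposite sign. Promoters shown were taken among named members with a match. The values of 1 member, which stays in all counts and medians, are not reported here.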

Additional observations from a re-analysis of the deposited data

Results flagged for a closer look

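Over the members with values in every sample and the mean of all members, 15 measures in all, 60 groups were checked for a sample standing far from the others of its group, of which chance alone flags about 1 in 20, and 3 stood apart. Fen1 was highest in replicate 1 of the D0 controls, at 11.02 against 10.66 in the next, the array that also stood highest in the mean of the members. Cdc6 was highest in replicate 4 of the D28 controls, at 5.22 against 4.67, the array of slide 2. Cdt1 was highest in replicate 4 of the exposed rats of D0, at 5.40 against 4.49.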

How the results depend on the processing

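The count of members past both thresholds on D0, 2 as reported, was 5 with array weights, where 2.65% of all genes passed. It was 5 of 50 members with the filter on spots well above background (2.97% of all genes) and 5 with the slide as a fixed block (2.20%). The probe of highest mean signal gave 4 (2.03%), and the slide as a random block 4 (2.35%). At an unadjusted p it was 8, against 4.11% of all genes, and it ran from 2 to 7 when 1 array was left out. On D28, 1 as reported, it was 0 with 75th percentile scaling (0.777% of all genes), normexp background correction (0.437%) or the deposited table (0.508%). It was also 0 with the arrays of the day alone (0.282%), the probe of highest mean signal (0.743%) or Clspn without 1 probe. It was 2 without the FC limit (1.32% of all genes), 4 at an unadjusted p (2.88%) and 4 with the slide as a random block (1.14%). With the slide as a fixed block it was 8 (1.09%), and it was 0 to 3 when 1 array was left out. Between the controls, 1 as reported, it was 0 with normexp (0.446% of all genes) or the deposited table (0.482%). It was also 0 with the probe of highest mean signal (0.63%) or Clspn without 1 probe. It was 3 at an unadjusted p (3.31% of all genes), and 1 in every fit without 1 array. At an unadjusted p it was 1 for the difference of effects (2% of all genes) and 3 between exposed rats of both days (2.46%). Both counts were 0 as reported and 0 in every fit without 1 array. The log2 FC of Blm on D0 turned to 0.02 with 75th percentile scaling, 0.01 with the deposited table, 0.19 with the filter on spots well above background, 0.04 with normexp and 0.20 with the probe of highest mean signal, and ran from -0.33 to 0.02 when 1 array was left out. That of Pcna on D28 turned to 0.05 with the slide as a fixed block and ran from -0.11 to 0.03 when 1 array was left out, and that of Rrm1 between controls turned to 0.00 with the probe of highest mean signal. The causes were not tested. The median of the members stayed between 0.18 and 0.40 on D0 and between 0.16 and 0.26 on D28 over all these fits, and Rrm2 and Ccne1 passed both thresholds on D0 in all of them. Replicate numbers did not pair the samples (12 of 33 same-numbered pairs correlated above 0.1, from -0.30 to 0.46), and with the replicate number as a block the counts were 2 on D0 and 1 on D28. Signal near background limits Uhrf1, Orc1, Pola2, Cdt1 and the second Clspn probe.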
